A study of Homo sapiens with 6 samples.

Results

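The clustered protocadherins are a family of cell-surface proteins encoded in 3 neighbouring gene clusters, alpha, beta and gamma, on human chromosome 5. They were taken here as every gene symbol of the count table that starts with PCDHA, PCDHB or PCDHG. This gave 59 of 35238 symbols: 16 alpha, 19 beta and 24 gamma. PCDHA14, PCDHB17P, PCDHB18P, PCDHB19P, PCDHGB8P and PCDHGB9P are pseudogenes and were kept in the counts of members and in the cluster sums. Of them, PCDHB18P, PCDHB19P and PCDHGB8P had enough counts to be tested. The study sequenced RNA from HAP1, an established near-haploid human cell line, to see what the loss of DEGS1 does to the cell. DEGS1 is the desaturase that makes ceramide from dihydroceramide. The control group was 3 libraries of untreated wildtype HAP1 cells, and the other group was 3 libraries of untreated HAP1 cells with a DEGS1 knockout. Cells of both genotypes were kept in IMDM with 5% serum, and their RNA was taken 24 h after a passage. The labels give neither the number of knockout clones nor whether the libraries of a genotype were separate cultures. The p-values therefore set the difference between genotypes only against the spread among these libraries, which may be technical.

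Each clustered protocadherin protein carries extracellular cadherin repeats that bind the same isoform on a neighbouring cell. Neurons choose a few isoforms each, which gives a cell its surface identity. Every alpha and gamma isoform has its own first exon with its own promoter, and this variable exon is spliced to constant exons shared by the whole cluster, which encode the common end of the cytoplasmic tail. Beta genes have no constant exons. The last isoforms of the alpha and gamma clusters, called C-type, are promoted differently and are widely expressed in the nervous system. Promoter choice is known to depend on DNA methylation, on CTCF and cohesin, and on distant enhancers.

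Most isoform promoters hold a conserved sequence element with CGCT at its core, so the promoters of the isoforms described most closely are shown here. They come from the RefSeq promoter table for GRCh38.p14, which held 47 of the 59 members. Each run is the 100 bases before the annotated start on the plus strand. Every CGCT is in capitals, whether or not it belongs to the conserved element. The alpha promoters are those of PCDHA4 at chr5:140806968-140807067, the most abundant alpha isoform, of PCDHA10 at chr5:140855797-140855896 and of the C-type isoform PCDHAC2 at chr5:140966376-140966475.
PCDHA4: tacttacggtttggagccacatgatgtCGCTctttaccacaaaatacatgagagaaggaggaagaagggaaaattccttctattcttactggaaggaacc
PCDHA10: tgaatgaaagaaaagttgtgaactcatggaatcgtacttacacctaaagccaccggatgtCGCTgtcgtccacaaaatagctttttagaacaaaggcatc
PCDHAC2: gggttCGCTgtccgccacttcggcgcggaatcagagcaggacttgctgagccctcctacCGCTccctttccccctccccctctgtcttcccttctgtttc
In the PCDHA4 promoter the C of CGCT lies 73 bases before the start, and in PCDHA10 it lies 40 bases before it.

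The beta promoters are those of PCDHB2 at chr5:141094515-141094614, which fell in the knockout, of PCDHB4 at chr5:141121718-141121817 and PCDHB5 at chr5:141135106-141135205, whose knockout means were higher, and of PCDHB13 at chr5:141213819-141213918, the next most abundant beta isoform after PCDHB5 per length in both genotypes.
PCDHB2: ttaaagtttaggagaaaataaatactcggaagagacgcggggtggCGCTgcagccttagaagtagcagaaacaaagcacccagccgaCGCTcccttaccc
PCDHB4: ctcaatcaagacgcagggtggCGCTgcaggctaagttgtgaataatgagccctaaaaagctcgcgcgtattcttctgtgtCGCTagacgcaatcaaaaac
PCDHB5: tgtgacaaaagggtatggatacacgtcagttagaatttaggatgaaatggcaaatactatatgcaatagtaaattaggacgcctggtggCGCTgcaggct
PCDHB13: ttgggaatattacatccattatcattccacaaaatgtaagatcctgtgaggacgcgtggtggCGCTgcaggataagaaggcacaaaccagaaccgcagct
All of these hold the longer string GGTGGCGCT, and the start annotated for PCDHB5 lies only 11 bases after its CGCT. PCDHB2, which fell, and PCDHB4 and PCDHB5, with higher knockout means, thus carry the same letters at the core.

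The gamma promoters are those of PCDHGA7 at chr5:141382642-141382741 and of the C-type isoform PCDHGC3 at chr5:141475866-141475965, which both fell, and of PCDHGA10 at chr5:141412887-141412986, the most abundant gamma isoform.
PCDHGA7: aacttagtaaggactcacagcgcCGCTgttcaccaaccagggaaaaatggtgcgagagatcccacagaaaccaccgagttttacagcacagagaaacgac
PCDHGC3: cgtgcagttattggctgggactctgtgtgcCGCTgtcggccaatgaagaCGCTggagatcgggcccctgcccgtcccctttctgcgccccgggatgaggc
PCDHGA10: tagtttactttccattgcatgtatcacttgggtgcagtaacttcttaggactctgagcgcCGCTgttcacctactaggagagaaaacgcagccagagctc
PCDHGA7 and PCDHGA10 both hold CGCTGTT, while PCDHGC3 has CGCT followed by other letters. Searched on both strands in the 100 bases before the start, CGCT was found in 44 of the 47 members (93.6%), against 48.8% of the promoters of 27305 genes. The 3 without it were PCDHA9, PCDHB8 and PCDHGB2. The letters around the core differed by cluster. CATGATGTCGCT was found in 8 of 13 alpha promoters and in no beta or gamma promoter (0.0293% of all promoters), and GGTGGCGCT in 12 of 14 beta promoters and in no other member (0.271% of all). CGCTGTT was found in 12 of 20 gamma promoters, in 1 beta promoter and in no alpha promoter (0.886% of all). These longer strings, each of which overlaps CGCT, were picked because they were common in these same promoters, so their counts are a description.

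Total counts per library were 17322756 to 28988522 for wildtype and 19389644 to 27659835 for knockout cells. Levels are given in CPM, the count of a gene relative to the scaled total of its library, and a count of 3, the floor used here, is 0.109 to 0.161 CPM. DEGS1 itself was at 95.5 to 123 CPM in wildtype and at 6.88 to 10.4 CPM in the knockout, as the labels say. Wildtype replicate 2 stood apart from the other libraries: with all 6 libraries 756 of 16954 tested genes were called at an adjusted p under 0.05, and without it 3825 of 17305 were. The labelled cell line was set against marker lists of other cell types. HAP1 descends from a leukaemia line but grows attached. The 10 blood markers together held 120 to 123 CPM in wildtype and 124 to 141 CPM in the knockout. Most of the wildtype sum came from LYN, TAL1 and GATA2, with means of 42.91, 29.03 and 22.48 CPM. HCLS1 and RUNX1 had wildtype means of 12.91 and 9.241 CPM. PTPRC, CD34, CD33 and GATA1 had wildtype means of 3.113 CPM or less, and SPI1, a defining blood factor, was at 0 in all libraries. In bulk RNA, fewer cells of a type and less RNA per cell cannot be told apart.

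Reads counted for the clusters were few. All 59 members together held 3296 to 4071 counts per wildtype library and 2419 to 3432 per knockout library, and PCDHA14 had no count in any library. Levels between genes are compared per kilobase of exon that no other member shares. On that scale the leading wildtype isoforms were PCDHA4 at 3.25 ± 1.15 CPM per kilobase (SD, n = 3), PCDHB5 at 3.12 ± 1.73, PCDHGA10 at 2.71 ± 0.08 and PCDHGC3 at 2.24 ± 0.36, and neighbours in this order overlapped in their libraries. A single isoform led each cluster in both genotypes: PCDHA4 in alpha, PCDHB5 in beta and PCDHGA10 in gamma. At the other end, PCDHA13 had no count in knockout replicates 1 and 3, in which the alpha cluster held 829 and 1068 counts. Reads of the shared alpha exons were therefore not added to every isoform, but how they were divided is not given in the sources used here.

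**Figure D1:**
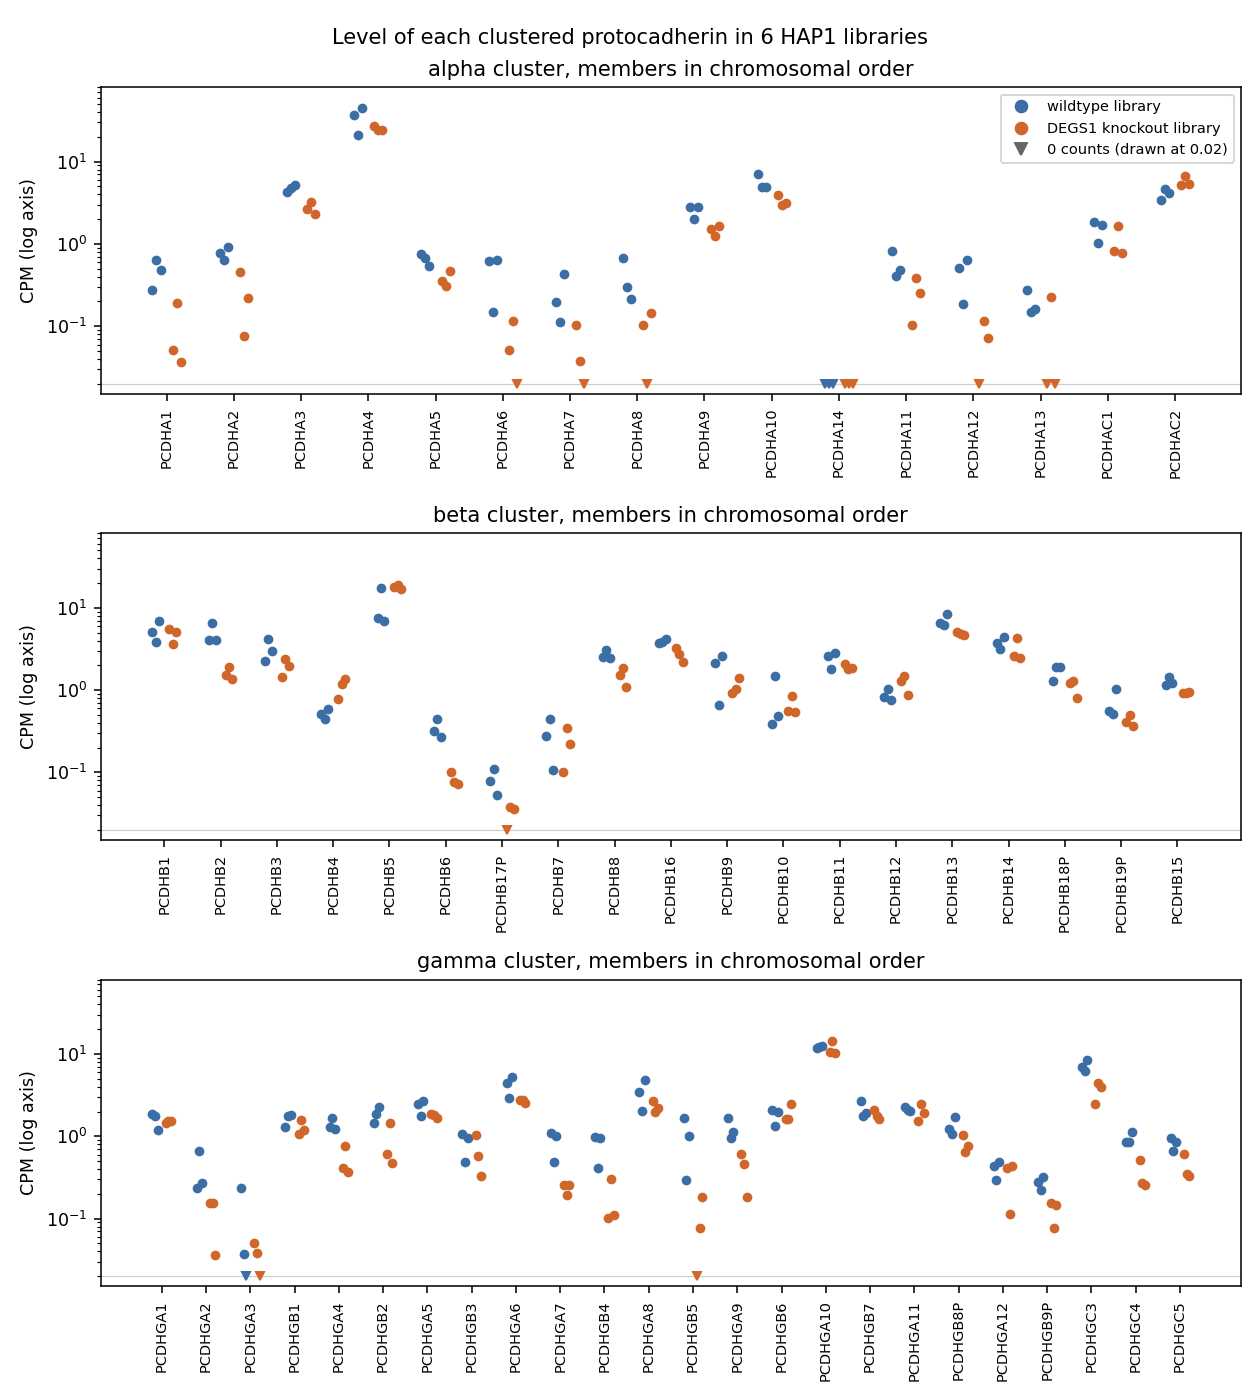
Level of each clustered protocadherin in CPM on a log axis, in chromosomal order within the alpha, beta and gamma clusters, with 1 point per wildtype or DEGS1 knockout library and triangles for libraries with 0 counts. PCDHA4 and PCDHGA10 stand above the rest of their clusters in every library, PCDHB5 does so in the knockout libraries and wildtype replicate 2 but not in wildtype replicate 3, and most knockout points lie below the wildtype points of the same gene.

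The question here is whether the clusters differ between knockout and wildtype cells. Of the 59 members, 43 passed the filter on low counts and were tested, 8 alpha, 16 beta and 19 gamma. By the quasi-likelihood test of edgeR, with p-values adjusted after Benjamini-Hochberg over all genes, 3 of them fell in the knockout, PCDHB2, PCDHGA7 and PCDHGC3, and 0 rose. Over all tested genes 4.46% were called, 2.95% as lower and 1.51% as higher, and among the tested members 6.98% were, near that background for a count as small as 3. DESeq2's Wald test and limma voom each called 2 lower and 0 higher. At an unadjusted p under 0.05 there were 19 of the 43 members, against 16.5% of all tested genes.

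Below that threshold the members leaned one way. The log2 fold change, given throughout as knockout over wildtype, was negative in 38 of the 43 tested members with a median of -0.55, while over all tested genes it was negative in 52.7% with a median of -0.02. All 3 knockout libraries lay below all 3 wildtype libraries in 20 of the 43 tested members, against 11.6% of all tested genes, and above them in 2, against 9.24%. Since the filter can keep a gene through its higher group, the same was counted over all 58 members with any count: the knockout mean was lower in 53, against 55.5% of all genes with any count, and higher in 5, PCDHAC2, PCDHB4, PCDHB5, PCDHB12 and PCDHGB6. The knockout libraries lay wholly below the wildtype libraries in 32 of the 59, 11 alpha, 8 beta and 13 gamma, against 10% of all genes with any count. Genes at low levels leaned the same way to a smaller degree: among 10066 other genes within the members' range of mean level, 0.362 to 29.8 CPM, 60.4% were negative with a median of -0.09 and 12.7% had all knockout libraries below all wildtype libraries.

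Among the tested members the lean was seen at each level of expression. The median log2 fold change was -0.87 in the 12 tested members under 1 CPM, -0.47 in 18 members between 1 and 3 CPM and -0.53 in 13 members over 3 CPM. The median standard error (SE) was 0.44, 0.31 and 0.24 in the same order, so the low members are the least precise. The filter can keep a low member through its higher group, which can enlarge the fold changes in the lowest class. No values of other genes were computed for each class.

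**Figure D2:**
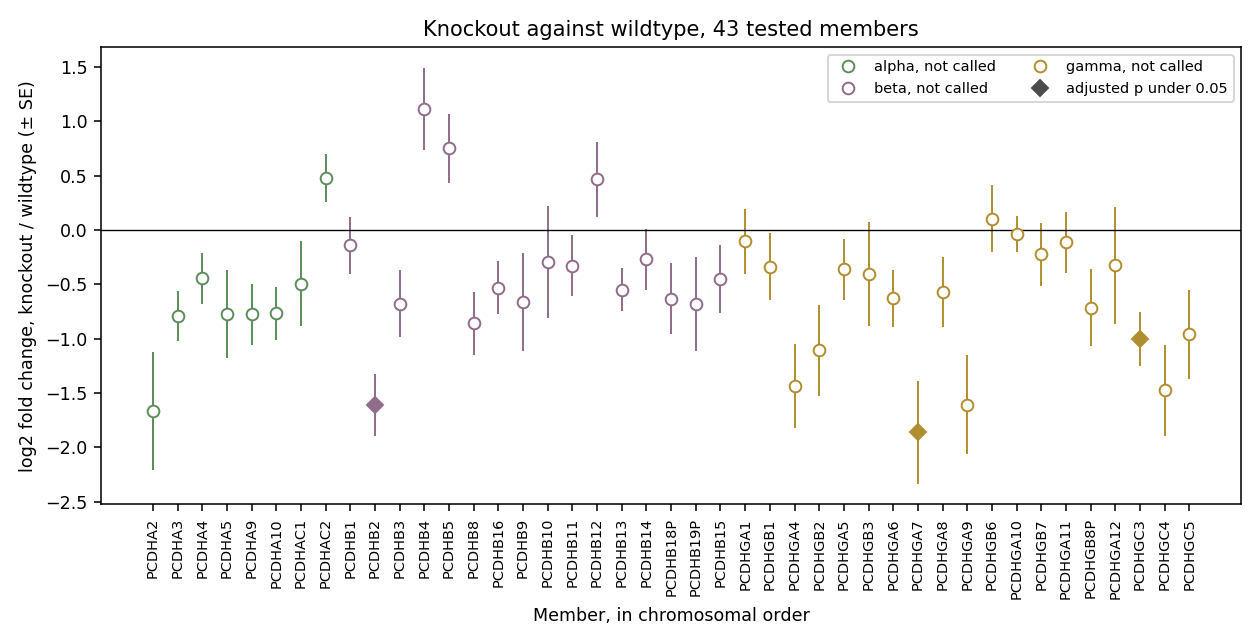
Log2 fold change of knockout over wildtype with its SE for each of the 43 tested members, in chromosomal order, coloured by cluster. All but 5 of the points lie below 0; the members that passed the test are PCDHB2, PCDHGA7 and PCDHGC3.

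The alpha cluster was summed first. If each read was counted once, the sum of a whole cluster does not depend on how reads of the shared exons were divided among isoforms. The sums of parts of the alpha and gamma clusters given below can depend on that division. Typical alpha isoforms share 2866 bases of exon with other members in the GENCODE release 29 models. The wildtype sums were 61.8, 41.8 and 68.1 CPM and the knockout sums 42.5, 41.1 and 38.9 CPM. Wildtype replicate 2 lay inside the knockout range and the other wildtype libraries lay well above it. Without PCDHA4, the leading isoform, the sum was 24.5, 20.7 and 23.3 CPM in wildtype and 15.3, 17.2 and 14.4 CPM in the knockout, with no overlap and a knockout mean of 68.6% of wildtype. With PCDHA4 the knockout mean was 71.4% of the wildtype mean, a log2 ratio of -0.49, and without wildtype replicate 2 the log2 ratio was -0.66. In a design of 3 against 3 an exact permutation test cannot go below a two-sided p of 0.10, so no test of the sums is given.

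None of the 8 tested alpha members passed edgeR's test, 5 of them had an unadjusted p under 0.05, and DESeq2 and limma voom also called 0. Their log2 fold changes were negative in 7 of 8 with a median of -0.77. PCDHA4, the isoform with 58.9 ± 7.79% of alpha counts in wildtype and 61.7 ± 3.11% in the knockout, was at 37.3, 21.1 and 44.8 CPM in wildtype and at 27.2, 23.9 and 24.5 CPM in the knockout. Wildtype replicate 2 was the lowest of the 6 libraries, so the groups overlapped. The log2 fold change was -0.45 (SE 0.23, adjusted p = 0.389 by edgeR), and without wildtype replicate 2 it was -0.70 (adjusted p = 0.00138 by edgeR). That call rests on leaving out a single library.

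Other variable alpha isoforms were lower in every knockout library without passing the test. PCDHA10 was at 7.16, 4.98 and 4.93 CPM in wildtype and at 3.95, 2.94 and 3.17 CPM in the knockout, and the groups did not overlap (log2 fold change -0.77, SE 0.24, adjusted p = 0.112 by edgeR). PCDHA3 was at 4.32, 4.79 and 5.14 CPM and at 2.67, 3.21 and 2.33 CPM, again with no overlap (-0.79, SE 0.23, adjusted p = 0.0855 by edgeR). PCDHA2, a rare isoform, was at 0.786, 0.631 and 0.911 CPM and at 0.462, 0.0765 and 0.219 CPM, the last 2 close to the floor (-1.67, SE 0.54, adjusted p = 0.128 by edgeR). Without wildtype replicate 2 each of these passed edgeR's test, with adjusted p-values of 0.0197 for PCDHA10, 0.0289 for PCDHA3 and 0.0339 for PCDHA2.

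Of the C-type alpha isoforms, PCDHAC2 had a higher and PCDHAC1 a lower knockout mean. PCDHAC2, which differs from the variable isoforms in its promoter and in where it is expressed, was at 3.46, 4.64 and 4.18 CPM in wildtype and at 5.13, 6.69 and 5.29 CPM in the knockout. All knockout libraries were above all wildtype libraries, but the difference did not pass the test (0.48, SE 0.22, adjusted p = 0.302 by edgeR). PCDHAC1 was at 1.85, 1.04 and 1.71 CPM and at 0.821, 1.64 and 0.765 CPM, with overlapping groups (-0.49, SE 0.39, adjusted p = 0.572 by edgeR). The variable alpha isoforms together had a knockout mean of 66.1% of wildtype and the C-type pair 120.5%, through PCDHAC2. The difference between those kinds of isoform was not tested.

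The beta cluster, whose genes share no exons in the GENCODE models but are close copies in sequence, differed least in its sum. It stood at 45.6, 58.6 and 52.4 CPM in wildtype and at 47.4, 50.2 and 44.2 CPM in the knockout, with overlapping groups and a knockout mean of 90.6% of wildtype (log2 ratio -0.14). Without PCDHB5, its leading isoform, the beta sum was 38.1, 41.2 and 45.5 CPM in wildtype and 29.4, 31.2 and 27.2 CPM in the knockout, with no overlap and a knockout mean of 70.5%. Of the 16 tested beta members 13 had a negative log2 fold change, with a median of -0.49.

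PCDHB2 was the clearest of the members that passed. Its wildtype levels were 4.01, 6.57 and 4.07 CPM and its knockout levels 1.54, 1.91 and 1.35 CPM. Every knockout library was below every wildtype library, and wildtype replicate 2 was the highest. It fell with a log2 fold change of -1.61 (SE 0.29, adjusted p = 0.00678 by edgeR), to 32.8% of the wildtype level, and passed in 14 of 15 other settings. Without knockout replicate 3 the edgeR adjusted p was 0.058. Per kilobase it ranked 3rd of the beta genes in wildtype and 9th in the knockout. Of the 75-base words in its exons, 15.1% also occur in another member and 25.2% in any other gene, so part of its reads could have been placed elsewhere. An antisense gene model, AC244517.5, overlaps it by 505 bases and has no entry in the count table.

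PCDHB5 had its values the other way round. It was at 7.51, 17.4 and 6.96 CPM in wildtype and at 18.0, 19.0 and 16.98 CPM in the knockout. The knockout libraries lay close together, and wildtype replicate 2 lay among them while the other wildtype libraries were far below, so that the groups overlapped. The log2 fold change was 0.75 (SE 0.32, adjusted p = 0.283 by edgeR), and without wildtype replicate 2 it was 1.32 (adjusted p = 6.75e-05 by edgeR). As a share of all beta counts PCDHB5 took 16.5, 29.7 and 13.3% in wildtype and 38.0, 37.8 and 38.4% in the knockout. All knockout shares were above all wildtype shares, wildtype replicate 2 included. Another such model, AC244517.11, also without an entry, overlaps PCDHB5 by 501 bases, and the strand setting of the counting is not given in the sources used here.

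PCDHB4, a rare isoform that lies next to PCDHB5, was at 0.511, 0.446 and 0.589 CPM in wildtype and at 0.770, 1.19 and 1.35 CPM in the knockout. It was higher in every knockout library without passing the test (1.11, SE 0.37, adjusted p = 0.144 by edgeR). The other abundant or low-p beta isoforms leaned down. PCDHB13 was at 6.57, 6.20 and 8.52 CPM and at 5.03, 4.82 and 4.67 CPM, with no overlap (-0.55, SE 0.20, adjusted p = 0.179 by edgeR). PCDHB8 was at 2.56, 3.05 and 2.46 CPM and at 1.54, 1.84 and 1.09 CPM, with no overlap (-0.86, SE 0.29, adjusted p = 0.146 by edgeR); 34.6% of its 75-base words occur in another member, the highest share of any. PCDHB1 and PCDHB14 overlapped between groups. PCDHB1 was at 5.03, 3.83 and 6.96 CPM and at 5.59, 3.67 and 5.03 CPM (-0.14, SE 0.26, adjusted p = 0.826 by edgeR), and PCDHB14 was at 3.77, 3.16 and 4.39 CPM and at 2.57, 4.32 and 2.44 CPM (-0.27, SE 0.28, adjusted p = 0.676 by edgeR).

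The gamma sum was lower in every knockout library. It stood at 52.7, 43.8 and 56.0 CPM in wildtype and at 34.2, 39.9 and 33.1 CPM in the knockout, with a knockout mean of 70.3% of wildtype and a log2 ratio of -0.51. Typical gamma isoforms share 2181 bases of exon. Of 19 tested gamma members 18 had a negative log2 fold change, with a median of -0.57, and 2 passed the test. By kind, the knockout mean was 78.5% of wildtype for the A isoforms and 48.3% for the C-type isoforms. For the B isoforms, with the pseudogenes PCDHGB8P and PCDHGB9P included, it was 66.3%. None of these groups overlapped between genotypes, and the A isoforms came closest, with wildtype replicate 2 at 26.82 CPM against 26.77 CPM in knockout replicate 2.

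**Figure D3:**
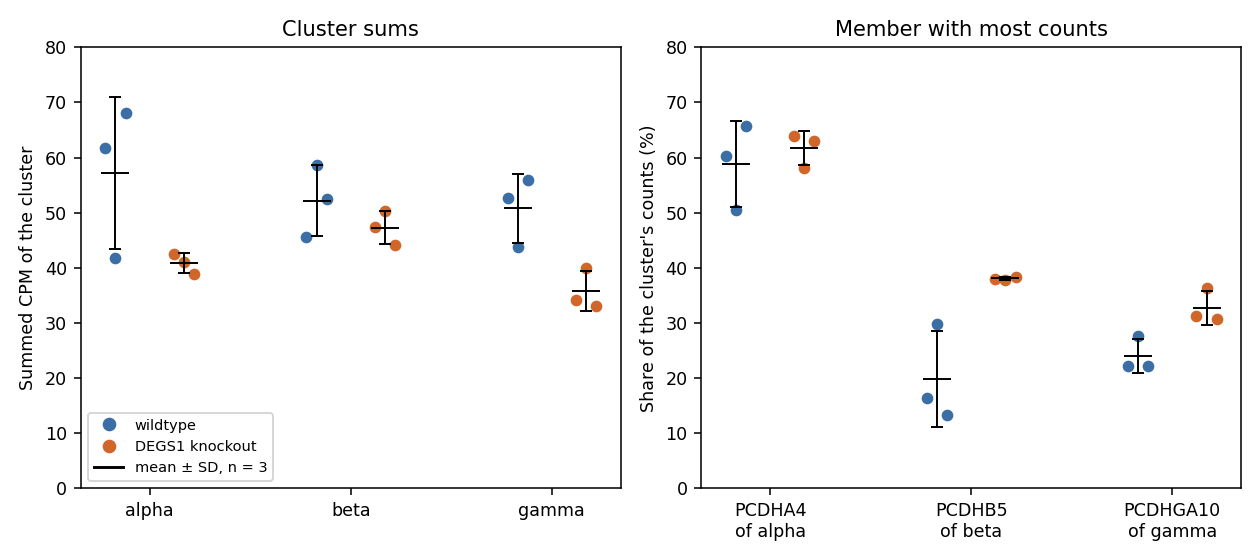
Left, summed level in CPM of the alpha, beta and gamma clusters. Right, the percent of its cluster's counts held by PCDHA4, PCDHB5 and PCDHGA10. Both panels have 1 point per library and the mean ± SD of 3 libraries. The gamma sums do not overlap between genotypes, the alpha sums overlap through wildtype replicate 2, and the beta sums overlap. The knockout shares of PCDHB5 and PCDHGA10 lie above the wildtype shares, and those of PCDHA4 overlap.

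PCDHGC3, the C-type gamma isoform with the highest level, was at 7.04, 6.24 and 8.57 CPM in wildtype and at 2.46, 4.40 and 3.94 CPM in the knockout. The groups did not overlap, and it fell with a log2 fold change of -1.003 (SE 0.25, adjusted p = 0.0423 by edgeR). Leaving out wildtype replicate 1 or 3, or any of the knockout replicates, ended the call, with edgeR adjusted p-values of 0.115 and 0.119 for the wildtype libraries and 0.166, 0.0558 and 0.141 for knockout replicates 1, 2 and 3. The other C-type gamma isoforms were also lower in every knockout library. PCDHGC4, which is needed for neuronal survival in mice, was at 0.865, 0.854 and 1.13 CPM and at 0.513, 0.268 and 0.255 CPM (-1.48, SE 0.42, adjusted p = 0.0795 by edgeR). PCDHGC5 was at 0.944, 0.669 and 0.857 CPM and at 0.616, 0.344 and 0.328 CPM (-0.96, SE 0.41, adjusted p = 0.268 by edgeR). No 75-base word in the exons of these C-type gamma isoforms, taken without the shared exons, occurs in another member.

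PCDHGA7, a rare variable isoform, was at 1.10, 0.483 and 1.02 CPM in wildtype and at 0.257, 0.191 and 0.255 CPM in the knockout. The knockout libraries were all below the lowest wildtype library, replicate 2. It fell with a log2 fold change of -1.86 (SE 0.47, adjusted p = 0.0493 by edgeR), just inside the threshold. The call was lost in 9 of 14 other settings, with an adjusted p of up to 0.259, among them leaving out any library but wildtype replicate 2. All 10 tested A isoforms had a negative log2 fold change, but to unlike degrees. PCDHGA1 (-0.11, SE 0.30, adjusted p = 0.888 by edgeR) and PCDHGA12 (-0.33, SE 0.54, adjusted p = 0.805 by edgeR) had overlapping groups. Their wildtype means were 1.603 and 0.404 CPM, with PCDHGA7 between them at 0.867 CPM. PCDHGA4 was at 1.30, 1.67 and 1.23 CPM and at 0.410, 0.765 and 0.365 CPM (-1.44, SE 0.39, adjusted p = 0.0632 by edgeR), and PCDHGA9, chosen after its values were seen, had a log2 fold change of -1.61 (SE 0.46, adjusted p = 0.0792 by edgeR). Neither had overlapping groups. Both passed edgeR's test with no filter on counts and without wildtype replicate 2, and PCDHGA4 also passed without knockout replicate 2 (adjusted p = 0.0481).

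The leading gamma isoform showed no such difference. PCDHGA10 was at 11.7, 12.1 and 12.4 CPM in wildtype and at 10.7, 14.5 and 10.2 CPM in the knockout, and the wildtype libraries lay inside the knockout range. Its log2 fold change was -0.04 (SE 0.17, adjusted p = 0.935 by edgeR). Its share of gamma counts was 24.0 ± 3.14% in wildtype and 32.8 ± 3.12% in the knockout (SD, n = 3), and the gamma sum without it had a knockout mean of 61.8% of wildtype. PCDHGA6 was at 4.40, 2.93 and 5.25 CPM and at 2.77, 2.79 and 2.55 CPM, with no overlap (-0.63, SE 0.26, adjusted p = 0.255 by edgeR). PCDHGA8 was at 3.50, 2.01 and 4.77 CPM and at 2.67, 1.99 and 2.22 CPM, with overlap through wildtype replicate 2 (-0.57, SE 0.32, adjusted p = 0.416 by edgeR).

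**Figure D4:**
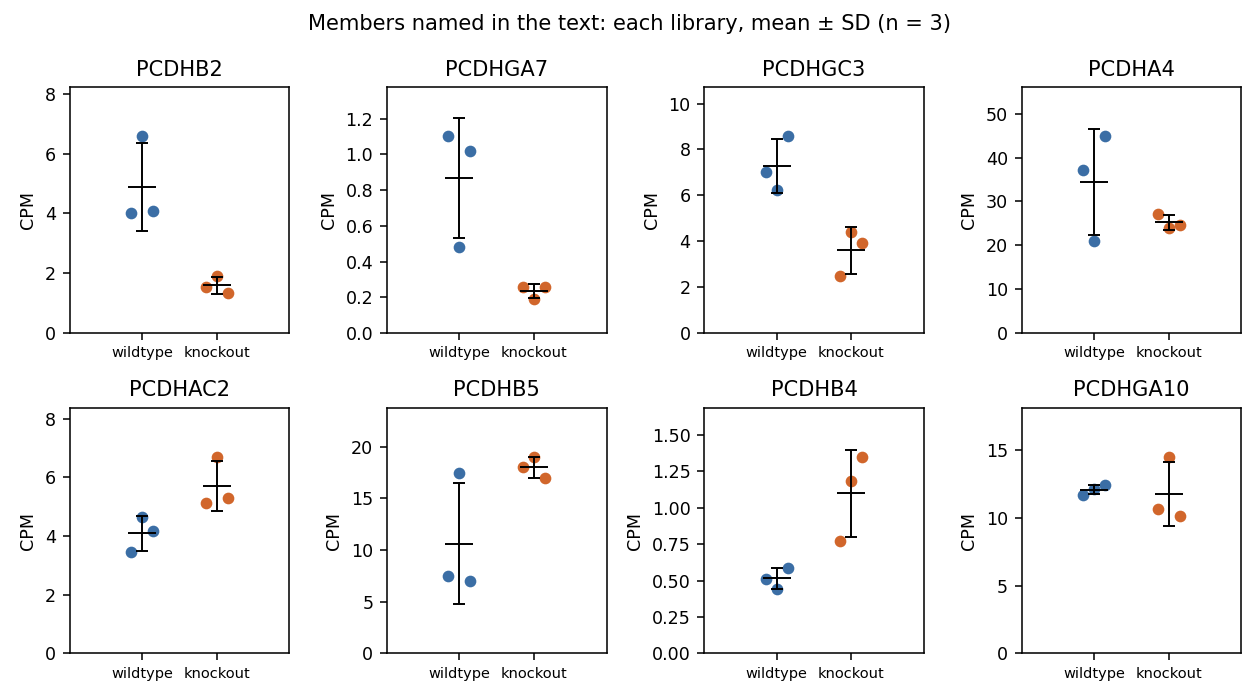
Level in CPM of 8 members in each library, with the mean ± SD of 3 libraries per genotype; each panel has its own axis from 0. PCDHB2, PCDHGA7 and PCDHGC3 passed the test, wildtype replicate 2 is the low wildtype point of PCDHA4 and the high one of PCDHB5, and PCDHGA10 overlaps throughout.

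A further 15 members had counts too low to be tested, and all of them had a lower knockout mean. In 12 of them all knockout libraries lay below all wildtype libraries. Among 4078 other untested genes with total counts in the same range, 8 to 77, 63.8% had a lower knockout mean and 11.9% had all knockout libraries below all wildtype libraries. PCDHGB5 gave 70 counts in all wildtype libraries together and 7 in all knockout libraries, a depth-corrected ratio of wildtype to knockout of 10.3 (exact binomial 95% interval 4.74 to 26.5, counting error only). PCDHA6 had 32 and 4 counts (ratio 8.23, 2.92 to 32.0), PCDHA12 30 and 5 counts (6.17, 2.37 to 20.4) and PCDHGB4 54 and 13 counts (4.27, 2.30 to 8.54). These 4 were chosen after their values were seen. Low knockout counts are part of what kept them out of the test, and wildtype replicate 2 was the lowest wildtype library in each. With no filter on counts, edgeR called 9 of 58 members lower, the 3 called with the filter, PCDHGA4, PCDHGA9, PCDHA6, PCDHA12, PCDHGB4 and PCDHGB5, against 3.95% of all genes called in either direction.

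Leaving out wildtype replicate 2 made the largest difference to the count of calls of any library. Without it edgeR called 19 of 48 tested members lower, 7 alpha, 3 beta and 9 gamma, and 1 higher, PCDHB5. At the same time the share of all tested genes called went from 4.46% to 22.1%, and the members' count is to be read against that. Leaving out any other library gave 0 to 3 lower and 0 higher.

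Genes around the clusters on the chromosome leaned slightly upward. Of the 10 tested genes on either side and TAF7, which lies between the beta and gamma clusters, 0 of 21 were called by edgeR or by limma voom and 1 by DESeq2, 2 had an unadjusted p under 0.05, and 4 had a negative log2 fold change, with a median of 0.07. The gene with the smallest p was DIAPH1, a regulator of actin filaments beyond the gamma end, at 164, 126 and 170 CPM in wildtype and at 102, 122 and 95.1 CPM in the knockout (-0.53, SE 0.14, adjusted p = 0.0663 by edgeR). It was lower in every knockout library, and DESeq2 called it. Without wildtype replicate 2, edgeR called 5 of the 21 genes higher and 1 lower, in a setting where 22.1% of all tested genes were called. Over all 686 tested genes of the chromosome that are not members, the flanking genes included, the median was 0.05 and 5.25% were called.

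The non-clustered protocadherins are single genes with their own promoters. They lie elsewhere in the genome or, as PCDH1 and PCDH12, among the genes flanking the clusters. Of 12, 10 were tested: 2 fell, 1 rose and 7 did not pass, so 30% were called against 4.46% of all tested genes. A negative log2 fold change was seen in 8, with a median of -0.49. All knockout libraries lay below all wildtype libraries in 5 and above them in 1, against 11.6% and 9.24% of all tested genes. A downward lean was thus seen outside the clusters too. PCDH9 was at 79.5, 78.6 and 81.4 CPM in wildtype and at 38.0, 44.1 and 42.1 CPM in the knockout (-0.95, SE 0.10, adjusted p = 0.000225 by edgeR), and PCDH11X, the X-linked protocadherin, at 10.3, 6.87 and 9.75 CPM and at 2.67, 2.07 and 2.70 CPM (-1.85, SE 0.23, adjusted p = 0.000627 by edgeR). Neither overlapped between groups, and both kept their call in 15 other settings. PCDH18 was at 127, 167 and 118 CPM and at 200.1, 196 and 210.0 CPM, higher in every knockout library (0.56, SE 0.14, adjusted p = 0.049 by edgeR); 6 of 15 other settings ended its call, among them leaving out any library but wildtype replicate 2.

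Of 30 chromatin and looping factors listed as known for the clusters, edgeR and limma voom called 0 and DESeq2 called 1 lower. CTCF, the cohesin subunits, DNA methyltransferases and SMCHD1 were among them. Over all tested genes edgeR called 4.46%, so 0 of 30 is near that background. An unadjusted edgeR p under 0.05 was seen in 4, against 16.5% of all tested genes, and the median log2 fold change was -0.04. PDS5B, a cohesin regulator, had the smallest p. It was at 140, 117 and 148 CPM in wildtype and at 87.3, 113 and 73.2 CPM in the knockout, lower in every knockout library (-0.57, SE 0.16, adjusted p = 0.0737 by edgeR). CTCF itself, named after its value was seen, had a log2 fold change of -0.17 (SE 0.13, adjusted p = 0.565 by edgeR). Without wildtype replicate 2 edgeR called 5 of the 30 lower and 1 higher, in a setting where 22.1% of all tested genes were called.

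Proteins that cut or signal below the protocadherins, such as ADAM10, gamma-secretase, the kinases PTK2 and PTK2B and the WAVE complex, leaned slightly upward. Of 21 such genes 1 rose by edgeR, 0 fell and 20 did not pass, so 4.76% were called against 4.46% of all tested genes. An unadjusted p under 0.05 was seen in 4, and the median log2 fold change was 0.10. DESeq2 called 1 higher and 1 lower, and limma voom called 0. FYN, a Src-family kinase, was at 24.0, 21.0 and 21.7 CPM in wildtype and at 28.6, 30.1 and 35.5 CPM in the knockout, with no overlap (0.50, SE 0.13, adjusted p = 0.045 by edgeR). Its call was lost in 9 of 15 other settings, among them leaving out any library but wildtype replicate 2.

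Markers of cell types were set beside these results. Of 12 neuron markers 8 were tested: MAP2 and SNAP25 rose, NEFL fell, and STMN2 was at 0 in all wildtype libraries. The list's summed level was 174 to 185 CPM in wildtype and 193 to 207 CPM in the knockout. Most of it came from TUBB3, not called, with means of 131 CPM in wildtype and 118 CPM in the knockout, and from MAP2, with 25.8 and 68.1 CPM. Of 6 epithelial markers CLDN1, EPCAM and ESRP1 fell, and CDH1, KRT8 and KRT18 were not called. Their summed level was 80.3 to 88.0 CPM in wildtype and 70.4 to 106 CPM in the knockout. Most of it came from KRT18, higher in every knockout library, with means of 51.1 and 70.8 CPM. Of 8 mesenchymal markers VIM and ZEB1 rose, PRRX1 fell, and CDH2, ZEB2, TWIST1, COL1A1 and COL1A2 were not called. The summed level was 601 to 698 CPM and 906 to 1012 CPM, most of it from VIM, with means of 421 and 712 CPM. Of the blood markers, TAL1 rose and RUNX1 and HCLS1 fell. TAL1, RUNX1, HCLS1, CLDN1, EPCAM and PRRX1 kept their calls in 15 other settings, and the others lost theirs in 1 (MAP2) to 5 (ZEB1). The part of these differences in the protocadherin results was not tested.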

How the data were processed

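RNA was sequenced in 3 wildtype and 3 DEGS1 knockout libraries, from 1 ug of total RNA with a stranded total RNA kit and single reads of 75 bases, per the labels' protocols. The authors deposited whole-number counts per gene symbol, not normalized. Per the submitters' processing notes, bcl2fastq 2.20 and build hg19 were used. The aligner, counter, annotation and strand setting are not given in the sources, so shared exons, near-identical copies and antisense genes could have been counted in several ways.

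Genes were filtered with edgeR 4.0.16 (filterByExpr) in R 4.3.3, scaled by trimmed mean of M values and tested with its quasi-likelihood test (robust) on genotype, with Benjamini-Hochberg adjustment over 16954 genes and a threshold of 0.05. The SE was taken as the size of the fitted log2 change divided by the root of the F statistic. The method was tested on simulated data. Members and lists were chosen with earlier results of these data known. Values were given for each called member, the 4 most abundant and the 3 with the smallest p of each cluster, the C-type members, and up to 4 called genes of each other list, or its smallest p. All 99 list genes were matched. All pairs of libraries within a genotype differed by more than sampling noise (chi-square per degree of freedom 11.7 to 48.2). Exon lengths and 75-base words came from GENCODE release 29, and promoters from RefSeq's GRCh38.p14 table, with no coordinates carried over to the counts.

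Alternatives were DESeq2 1.42.0 size factors and Wald test, upper-quartile scaling, library size only, limma 3.58.1 voom, no filter, 1 CPM in 3 libraries, a replicate block, each library left out, clusters summed to single genes, and a threshold of 0.01. A length and GC correction was added after seeing the data. Without molecular identifiers, reads are not independent molecules, so intervals and floors cover counting error only.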

Additional observations from a re-analysis of the deposited data

How the results depend on the processing

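The count of clustered protocadherins called lower by edgeR, 3, was 1 with upper-quartile scaling, 1 with library size only, 1 with a filter of 1 CPM in 3 libraries, 1 at a threshold of 0.01 and 9 with no filter. It was 3 with DESeq2 size factors, 2 with DESeq2's Wald test, 2 with limma voom and 2 with the length and GC trend removed. Leaving out each library in turn gave 0 to 19 lower and 0 to 1 higher; without wildtype replicate 1 or 3 or knockout replicate 1 the lower count was 1, and without knockout replicate 3 it was 0. PCDHGC3 also missed the threshold with upper-quartile scaling (adjusted p = 0.0627), library size only (0.072), 1 CPM in 3 libraries (0.0502) and the length and GC trend removed (0.0592). The deviations of same-numbered libraries correlated at r = 0.22 in replicate 1, 0.31 in replicate 2 and -0.13 in replicate 3. Knockout replicate 1 correlated more with wildtype replicate 3 (0.36) than with wildtype replicate 1, so the numbers were not taken as pairs. The sample descriptions of same-numbered libraries also end in the same code, whose meaning the labels do not give, and a shared batch was not tested. With the replicate block 6 members were called lower, PCDHA10 (adjusted p = 0.0458), PCDHGA4 (0.0322) and PCDHGA9 beside the 3, and 1082 of all genes against 756. The cluster sums kept their direction under 3 other scalings, each left-out library and a fit with each cluster summed to a single gene, the settings in which they were computed, with leave-one-out log2 ratios of -0.66 to -0.34 for alpha, -0.23 to -0.05 for beta and -0.60 to -0.43 for gamma. The log2 fold change of PCDHB1 ran from -0.32 to 0.10 over the left-out libraries and was above 0 without wildtype replicate 3 (0.10) or knockout replicate 2 (0.02). That of PCDHGA10 ran from -0.21 to 0.066, was above 0 without knockout replicate 1 (0.045) or 3 (0.066), and was 0.047 with the length and GC trend removed. That correction also gave 383 higher of 828 called genes, against 256 of 756. The cause of these changes was not tested. Depth limits the members under 1 CPM, where the median SE was 0.44.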
